A study of Mus musculus with 6 samples.

Results

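Unconventional myosins are the actin-based motors that do not form the filaments of muscle or stress fibres, and 10 of them with known roles in epithelium or secretion were followed here in sorted intestinal cells. The genes were Myo1a, Myo1c, Myo1d, Myo1e, Myo5a, Myo5b, Myo5c, Myo6, Myo7b and Myo19, 10 of the 18193 genes that the array names. They were chosen by their measured difference between the groups, because Myo5a and Myo6 were higher in CCK-EGFP cells while Myo5b and Myo5c were lower. That difference is therefore given as a description, with no test. All 25 probe sets that carry 1 of these symbols alone were taken, and each gene is led by the probe set that was brightest on average on the 6 arrays.

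Both groups came from adult Swiss Webster mice carrying a CCK-EGFP transgene, in which enhanced green fluorescent protein marks cells expressing cholecystokinin, the gut hormone released after a fatty meal. The intestine was dissociated with enzymes and sorted, giving 3 samples of fluorescent cells and 3 of non-fluorescent cells (non-EGFP), the latter taken in equal number. Non-EGFP cells are thus a mixture from the same transgenic animals and not a wild-type control. The labels do not say which segment of the intestine was used, whether animals were pooled, or whether replicates are separate mice. The spread between them, which the p-values measure, may thus be technical.

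Values are log2 RMA intensities, on which 1 unit is a doubling, and a level of 4.60 (the 95th percentile of olfactory and vomeronasal receptor genes) was taken as background. The defining genes of the sort were checked first. Cck averaged 13.16 in CCK-EGFP and 8.63 in non-EGFP cells, and 10 of 10 enteroendocrine markers passed the limma test as higher. On the first principal component the CCK-EGFP arrays scored -133.5, -135.4 and -94.2 and the non-EGFP arrays 141.6, 122.9 and 98.6, so replicate 3 was the least separated. Markers of other cells were tested as well. Over all genes 14.0% passed as higher and 10.2% as lower. With the replicate number fitted as a block, 2340 of the 18193 genes were higher and 1534 lower. Of 12 enterocyte markers 4 were lower and 0 higher, or 1 lower when the replicate number was fitted as a block. Of 5 tuft cell markers 3 were higher, or 2 with the block. Of 5 Paneth cell markers 0 passed without the block and 4 were lower with it. Of 7 goblet cell markers 1 was higher and 2 lower, with or without the block. Of 5 stem cell markers 1 was higher, or 2 with the block, and of 6 myeloid markers 1 was lower either way. Lymphocyte markers overlapped between the groups, with summed levels of 13.07 to 14.94 and 13.46 to 14.83 (log2 of the sum), and 5 of 8 stromal and smooth muscle markers lay below background in both groups. Of 4 control transcripts for RNA quality, Pcx parted the groups, with a 3' minus 5' difference of 2.36 to 3.07 in CCK-EGFP and 4.26 to 4.38 in non-EGFP cells. In sorted pools, fewer cells that express a gene and less RNA per cell cannot be told apart.

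As background, the classes differ in what they carry. Class V myosins walk along actin towards its fast-growing end with organelles held by Rab GTPases and their adaptors: myosin Va moves melanosomes and dense-core granules, myosin Vb moves apical recycling endosomes through Rab11, and myosin Vc is found on secretory granules of glandular epithelium. Myosin VI moves in the opposite direction and serves endocytosis and Golgi trafficking. Class I myosins link membranes to actin. Among them Myo1a is the classical brush border motor of the enterocyte, and Myo7b belongs to the complex that links the tips of neighbouring microvilli. Loss of myosin Vb in people causes microvillus inclusion disease.

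Myo5a and Myo5c, which stood on opposite sides of the comparison, are direct neighbours. On mouse chromosome 9 (GRCm38.p6, RefSeq) Myo5a spans chr9:75069799-75223688 and Myo5c chr9:75231969-75307485, with 8280 bases and 0 annotated genes between them. Promoter windows of 300 bases (250 before to 50 after an annotated start) were examined for 7 of the 10 genes. Those of Myo1d, Myo5b and Myo7b were not examined, so nothing is said of their promoters. The starts of the Myo5a and Myo1a windows lie inside the spans of their genes. Windows are shown for both neighbours, for Myo6, the other gene that was higher in CCK-EGFP cells, and for the brush border gene Myo1a. All 4 are on the plus strand, at chr9:75070956-75071255, chr9:75231764-75232063, chr9:80164784-80165083 and chr10:127705006-127705305, and are printed 5′ to 3′ from RefSeq. Capitals mark 3 motifs searched on both strands, the GC box GGGCGG, the TATA box TATAAA and the Rfx factor core GTTGCC.

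Myo5a: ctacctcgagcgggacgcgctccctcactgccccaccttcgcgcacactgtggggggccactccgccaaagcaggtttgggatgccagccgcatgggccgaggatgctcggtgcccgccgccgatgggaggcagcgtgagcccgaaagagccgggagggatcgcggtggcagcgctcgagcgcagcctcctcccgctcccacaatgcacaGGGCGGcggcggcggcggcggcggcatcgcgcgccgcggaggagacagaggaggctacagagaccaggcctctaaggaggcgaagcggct

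Myo5c: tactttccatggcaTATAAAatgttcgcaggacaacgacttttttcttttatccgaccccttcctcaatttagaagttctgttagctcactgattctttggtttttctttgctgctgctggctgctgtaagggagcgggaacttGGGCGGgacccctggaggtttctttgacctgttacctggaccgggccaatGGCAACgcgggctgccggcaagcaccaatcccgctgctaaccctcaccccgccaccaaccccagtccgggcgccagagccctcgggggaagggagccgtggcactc

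Myo6: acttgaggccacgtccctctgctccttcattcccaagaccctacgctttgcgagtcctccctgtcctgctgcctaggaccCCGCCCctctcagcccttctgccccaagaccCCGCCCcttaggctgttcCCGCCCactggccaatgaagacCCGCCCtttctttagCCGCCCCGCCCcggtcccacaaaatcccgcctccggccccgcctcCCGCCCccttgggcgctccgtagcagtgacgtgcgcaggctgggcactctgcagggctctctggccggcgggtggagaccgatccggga

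Myo1a: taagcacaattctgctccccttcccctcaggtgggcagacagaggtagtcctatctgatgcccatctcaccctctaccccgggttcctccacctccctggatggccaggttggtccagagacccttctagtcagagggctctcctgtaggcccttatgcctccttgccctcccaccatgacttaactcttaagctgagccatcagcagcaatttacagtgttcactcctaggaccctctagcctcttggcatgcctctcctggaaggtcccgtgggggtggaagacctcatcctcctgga

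The windows were of different kinds. Myo5a held 36 CpG dinucleotides and Myo6 held 22, against a median of 7 over 32851 promoter windows of the same length. Myo5c held 15 and Myo1a held 2. Of the windows not shown, that of Myo19, a gene lower in CCK-EGFP cells, held 31. The Myo1e window held 16 and the Myo1c windows 2, 14 and 32. The GC box, present in 35.7% of all windows, occurred once in Myo5a, once in Myo5c and 7 times in Myo6, 1 pair of which overlap by a base, and it was not in the Myo1a window. The TATA box letters, present in 13.6% of all windows, were found in Myo5c at position -236 alone. The Rfx core, in 12.5% of all windows, was in Myo5c at -56 and in Myo19 at -231. The E-box CANNTG, found in 72.3% of all windows, was in the Myo1a window and in none of Myo5a, Myo5c and Myo6. These are matches of letters and say nothing of binding.

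Among the leading probe sets, that of Myo5a, the granule motor, had the largest difference. Its leading probe set read 8.85, 8.23 and 8.67 in CCK-EGFP replicates 1 to 3 and 6.30, 5.26 and 5.19 in non-EGFP replicates 1 to 3. The groups were far apart, and non-EGFP replicate 1 was the highest of its group. The means were 8.59 ± 0.32 and 5.58 ± 0.62 (SD, n = 3), a log2 difference of 3.0 (SE 0.40) or 8.02-fold. The other 2 Myo5a probe sets had smaller differences, 1.09 (SE 1.12) and 0.95 (SE 1.03), and their groups overlapped. On both of them the overlap came from non-EGFP replicate 3, which read 7.42 and 7.01 against 4.05 to 4.61 on the other non-EGFP arrays. Averaged over its probe sets, the Myo5a difference was 1.68, smaller in size than that of Myo19 on the same terms (-1.88). Among enteric neuron and glia markers, 2 of 4 measured were higher in CCK-EGFP cells, Ret (10.72 against 4.44) and the glial filament gene Gfap (4.69 against 3.45). Gfap was near background in CCK-EGFP cells and below it in non-EGFP cells. Its call was lost without CCK-EGFP replicate 1 or 2 (limma adjusted p up to 0.0655). The mean of its probe sets gave no call (0.37, adjusted p = 0.283). Elavl4 (4.03 against 4.71) and S100b (4.07 against 4.69) were also near background and did not pass. The Elavl4 probe sets ranged from -0.68 to 1.02. The part of such cells in the Myo5a value was not tested.

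Myo6, the motor that moves the other way along actin, was also higher in CCK-EGFP cells. The leading probe set read 11.41, 11.10 and 10.94 in CCK-EGFP cells and 9.86, 10.39 and 10.44 in non-EGFP cells, so the groups did not overlap. The difference was 0.92 (SE 0.23), or 1.90-fold. A second bright probe set read 11.49, 11.53 and 11.62 against 8.51, 9.72 and 9.68, a difference of 2.24 (SE 0.40) or 4.74-fold, so the size of the Myo6 difference depended on the probe set. The third averaged 4.77 and 4.11, near background, and differed by 0.65. All 6 probe sets of Myo5a and Myo6 had the higher mean in CCK-EGFP cells.

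The other class V genes were lower. Myo5b, the apical recycling motor, read 11.24, 11.22 and 11.73 in CCK-EGFP cells and 12.56, 12.59 and 12.43 in non-EGFP cells. Its difference was -1.13 (SE 0.17), or 2.19-fold lower, and the other probe sets differed by -1.62 and -1.26. Myo5b lay far above background on every array of both groups. Myo5c read 8.57, 8.18 and 9.19 against 10.45, 9.45 and 10.09, a difference of -1.35 (SE 0.42) or 2.55-fold lower. Its groups were separated narrowly, by CCK-EGFP replicate 3 and non-EGFP replicate 2. The other Myo5c probe set averaged 2.12 and 3.12, below background in both groups.

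**Figure D1:**
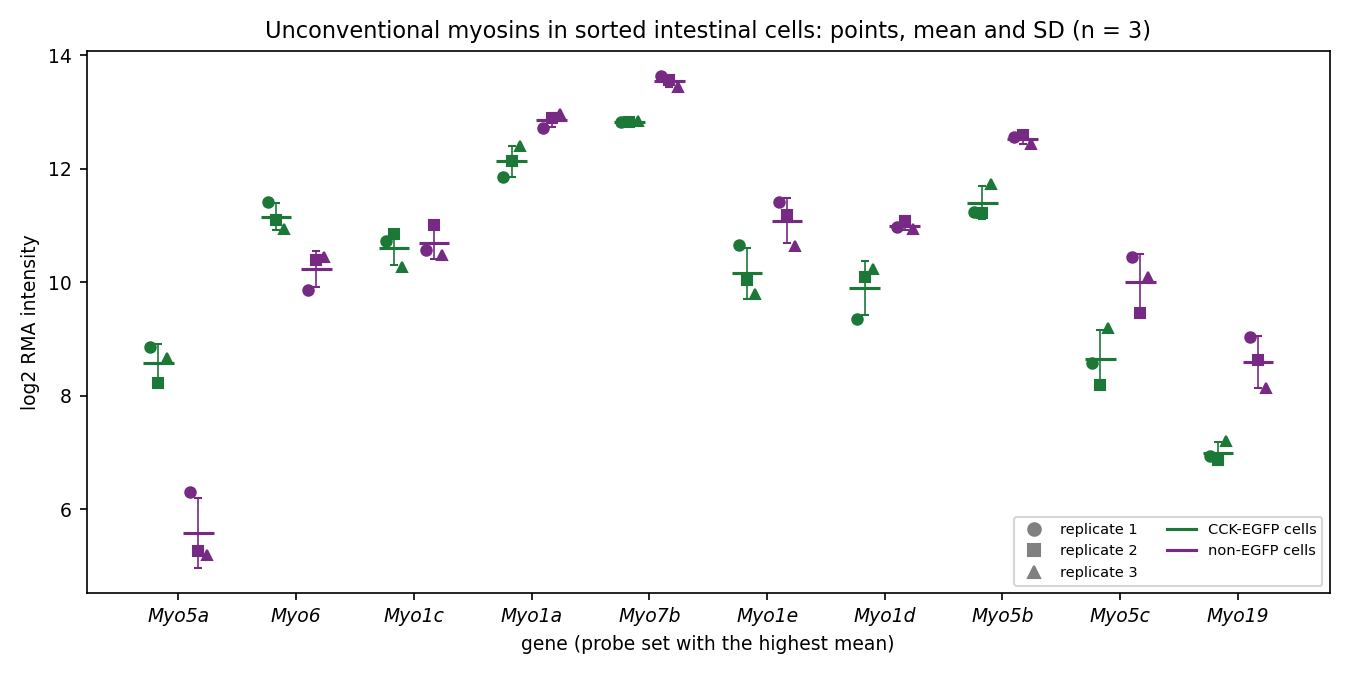
Log2 RMA intensity (vertical axis) of the leading probe set of each of the 10 myosin genes (horizontal axis) on the 3 CCK-EGFP and 3 non-EGFP arrays, with a marker shape for each replicate number, a line at the group mean and bars of 1 SD. Myo5a and Myo6 stand higher in CCK-EGFP cells, Myo1c and Myo1e overlap, and the other 6 stand lower; heights of different genes are not comparable, since each probe set has its own response.

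The brush border myosins were lower by small and even amounts. Myo1a read 11.85, 12.14 and 12.40 in CCK-EGFP cells and 12.71, 12.89 and 12.96 in non-EGFP cells, a difference of -0.72 (SE 0.18) or 1.65-fold lower. Myo7b, the microvillus tip motor, read 12.82, 12.82 and 12.83 against 13.63, 13.56 and 13.43, a difference of -0.72 (SE 0.057) or 1.65-fold lower. Each of these genes has 1 probe set. Neither overlapped between the groups, and both lay far above background in the CCK-EGFP samples too. The summed enterocyte markers were also bright in those samples (16.47 to 16.92, against 17.16 to 17.19 in non-EGFP cells, log2 of the sum). The part of enterocyte RNA in these levels was not tested.

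The remaining class I genes were not alike. Myo1d, a membrane-binding motor also present in enterocyte microvilli, read 9.35, 10.09 and 10.24 against 10.97, 11.07 and 10.93. Its difference was -1.10 (SE 0.28), or 2.14-fold lower, and the second probe set differed by -1.92 without overlap. Myo1e, a motor of endocytosis and cell adhesion, read 10.66, 10.03 and 9.79 against 11.42, 11.19 and 10.64. Its mean difference was -0.93 (SE 0.35), but CCK-EGFP replicate 1 and non-EGFP replicate 3 nearly coincided, so the groups overlapped. All 4 Myo1e probe sets had a lower mean in CCK-EGFP cells, from -1.56 to -0.93. Myo1c, which supports the delivery of vesicles to the plasma membrane, showed no clear side. It read 10.73, 10.84 and 10.26 against 10.57, 11.01 and 10.48, a difference of -0.08 (SE 0.24), and its other 3 probe sets differed by -0.34 to 0.34. The Myo1c sign turned when single arrays were left out (0.10 without CCK-EGFP replicate 3, 0.09 without non-EGFP replicate 2).

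Myo19, the motor bound to the outer membrane of mitochondria, had the lowest difference among the leading probe sets. It read 6.93, 6.86 and 7.20 in CCK-EGFP cells and 9.03, 8.62 and 8.13 in non-EGFP cells, a difference of -1.60 (SE 0.28) or 3.02-fold lower. The second Myo19 probe set averaged 4.18 in CCK-EGFP cells, below background, and 6.34 in non-EGFP cells, and its groups overlapped, with readings of 4.69 on non-EGFP replicate 2 and 7.54 on replicate 3.

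By leading probe set, the 3 CCK-EGFP arrays lay above the 3 non-EGFP arrays for 2 of the 10 genes and below them for 6, with overlap for 2. Over all 18193 genes the same held for 21.8% above and 28.1% below. The members were picked on this contrast, so these shares are not compared. Of the 8 genes with several probe sets, 7 had 1 sign throughout, the exception being Myo1c. The median difference of the 10 genes was -0.82, beside -0.17 over all genes.

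**Figure D2:**
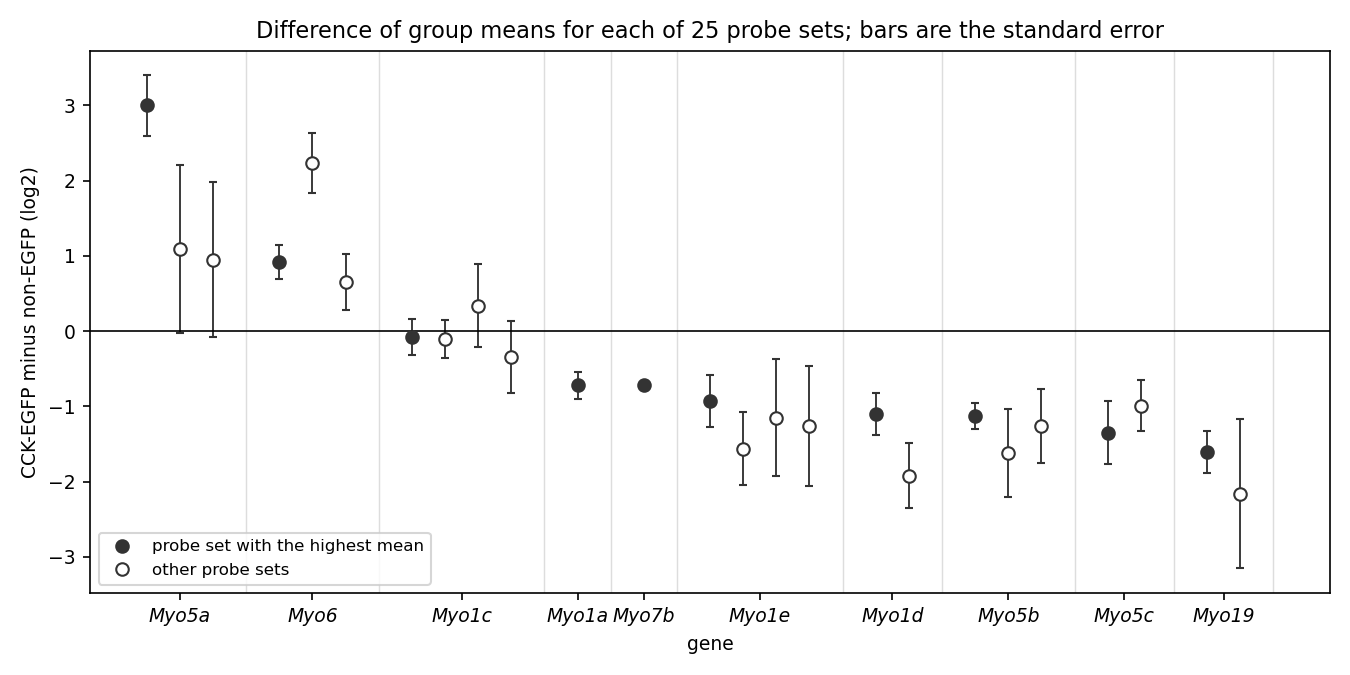
Difference of the group means, CCK-EGFP minus non-EGFP on the log2 scale (vertical axis), for each of the 25 probe sets, grouped by gene (horizontal axis), with bars of 1 standard error. Filled points are the leading probe sets; Myo5a spreads from 0.95 to 3.0 and Myo6 from 0.65 to 2.24, while every probe set of Myo1e, Myo1d, Myo5b, Myo5c and Myo19 lies below 0.

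The 6 lower genes were also compared among the sorted samples. On the leading probe sets of all 6 (Myo1a, Myo1d, Myo5b, Myo5c, Myo7b and Myo19), replicate 3 was the highest of the CCK-EGFP arrays, although for Myo7b by 0.01. The same held for 1 of their 5 other probe sets and for 40.4% of the 5113 genes that were lower without overlap. The summed level of 12 enterocyte markers read 16.53, 16.47 and 16.92 in CCK-EGFP replicates 1 to 3 and 17.16, 17.19 and 17.17 in non-EGFP cells, so it too was highest on CCK-EGFP replicate 3. So were the sums of Paneth (12.52, 12.33 and 14.18 in CCK-EGFP replicates 1 to 3), lymphocyte (13.07, 13.81 and 14.94), myeloid (9.57, 10.14 and 11.01) and stem cell markers (10.52, 10.49 and 11.05). The part of RNA from these cells in the myosin values was not tested. Without CCK-EGFP replicate 3 the differences were -0.86 for Myo1a, -1.27 for Myo1d, -1.30 for Myo5b, -1.62 for Myo5c, -0.72 for Myo7b and -1.70 for Myo19. On the same terms Myo5a differed by 2.96 and Myo6 by 1.03.

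**Figure D3:**
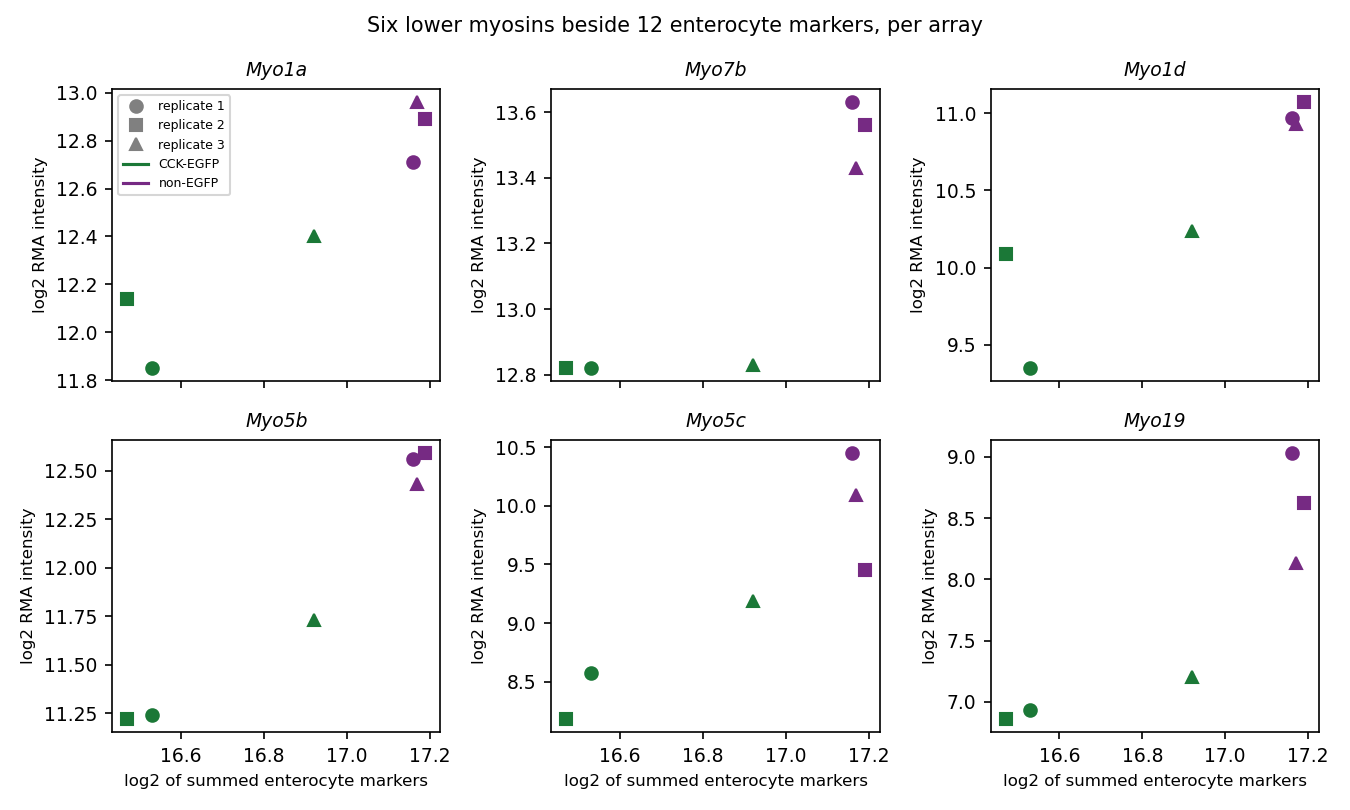
Log2 RMA intensity of 6 lower myosin genes (vertical axes, 1 panel each) against the log2 of the summed intensity of 12 enterocyte markers (horizontal axes), 1 point per array, coloured by group and shaped by replicate number. CCK-EGFP replicate 3, at 16.92, lies between the other CCK-EGFP arrays and the non-EGFP arrays on the horizontal axis; no relation is fitted, since the points fall into 2 groups.

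The partners of these motors were examined with a test, since they were not used in choosing the genes. Their lists were, however, drawn up with earlier results of these data known, and the p-values do not allow for that. Of 70 measured genes in 8 lists of other myosins and partners, 5 passed as higher in CCK-EGFP cells, 13 passed as lower and 52 did not pass (limma with Benjamini-Hochberg adjustment over all genes, adjusted p under 0.05). Over all genes 14.0% were higher and 10.2% lower, shares that also stand beside the counts of each list below. A gene that did not pass is not shown to be equal in the groups. With the replicate number as a block the counts were 5 higher and 9 lower. The 13 lower calls came to 6 without CCK-EGFP replicate 1, 4 without CCK-EGFP replicate 2 and 6 without non-EGFP replicate 1 or 2, and the 5 higher calls to 3 without CCK-EGFP replicate 2.

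The scaffold of the microvillus was the list with the most lower genes. Of 11 genes for the actin core and the links between microvilli, 6 were lower, 0 higher and 5 not past the threshold, with a median of -0.83 beside -0.17 over all genes. Cobl, an actin nucleator, read 9.48, 10.21 and 10.79 against 11.85, 12.14 and 11.93 (difference -1.81, SE 0.34, limma adjusted p = 0.014). Baiap2l1, a membrane-bending actin regulator, read 10.32, 9.99 and 10.18 against 12.12, 11.85 and 11.53 (-1.67, adjusted p = 0.00415). The bundling protein gene Espn fell by 1.35 (adjusted p = 0.00588), and Ezr, which encodes the membrane linker ezrin, fell by 1.17 (adjusted p = 0.00787). The cadherins of the intermicrovillar links, Cdhr2 (-0.50, adjusted p = 0.0759) and Cdhr5 (-0.41, adjusted p = 0.115), did not pass. The list had 6 lower calls without CCK-EGFP replicate 3 and 3 without CCK-EGFP replicate 2, where Cobl was among those lost (adjusted p = 0.0541). It had 4 without CCK-EGFP replicate 1, non-EGFP replicate 1 or non-EGFP replicate 2. With arrays centred on their medians it had 10 lower calls, and 10 with trended and robust eBayes. With the replicate block it had 5, the call lost being that of the actin capping gene Eps8 (-0.81, adjusted p = 0.035, or 0.0594 with the block). The enterocyte marker sum given above was also lower in CCK-EGFP cells. Of the lower genes, Cobl and Anks4b were highest of the CCK-EGFP arrays on replicate 3, like that sum. Baiap2l1, Espn, Ezr and Eps8 were not, and Espn was lowest there (9.08, 9.15 and 8.74 in replicates 1 to 3). The part of enterocyte RNA in this list was not tested.

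Of 7 adaptors that tie myosin Va to granules, 1 was higher, 1 lower and 5 did not pass, with a median of -0.36. These counts lie near the shares over all genes, 14.0% higher and 10.2% lower. Rab3a, the GTPase of secretory and synaptic vesicles, read 10.10, 10.15 and 9.53 against 7.67, 8.66 and 7.64 and rose by 1.94 (SE 0.34, limma adjusted p = 0.0111, or 0.0508 without CCK-EGFP replicate 2). Rab27a, the GTPase that recruits myosin Va to melanosomes, stood at 8.23 against 9.01 (-0.78, adjusted p = 0.249). The actin nucleators Spire1 and Spire2 had opposite signs, Spire1 at 1.01 (adjusted p = 0.0619) and Spire2 at -0.66 (adjusted p = 0.0463). Spire1 passed with the mean of its probe sets (1.71, adjusted p = 0.00408), with array weights (0.0473) and without CCK-EGFP replicate 3 (0.0494). The Spire2 value was a call lost with any 1 array left out (adjusted p up to 0.142) and with the replicate block (0.0785). Of 3 measured light chain genes, 1 was higher and 2 did not pass, with a median of -0.01. Dynll1, which encodes a dynein light chain, read 13.12, 13.23 and 12.75 against 11.38, 11.41 and 11.79. It rose by 1.51 (SE 0.22, adjusted p = 0.00605), with all 4 probe sets between 1.44 and 4.26. Its paralogue Dynll2 stood at 11.35 and 11.36 (-0.01, adjusted p = 0.985), and Calml4, a light chain of myosin VIIb, at 13.35 and 13.49 (-0.13, adjusted p = 0.558).

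Of 13 apical trafficking genes that work with myosin Vb, 1 was higher, 1 lower and 11 did not pass, with a median of -0.27. The shares over all genes were 14.0% higher and 10.2% lower. With arrays centred on their medians, 4 of the apical trafficking genes were lower. The gene called higher was Rab11fip2, the adaptor that joins Rab11 to myosin Vb, which read 7.10, 7.27 and 7.50 against 3.85, 4.76 and 5.17. On this leading probe set it rose by 2.70 (SE 0.36, limma adjusted p = 0.00408). The non-EGFP mean of 4.59 was just under background, which gives a rise of at least 6.46-fold there against the background level. The other Rab11fip2 probe sets reached down to -0.07, and the mean of its probe sets gave a smaller rise (1.13, adjusted p = 0.0212). Rab8a, a GTPase of apical delivery, read 9.94, 9.66 and 10.03 against 10.91, 10.86 and 10.85 (-1.0, adjusted p = 0.0128, or 0.0582 without CCK-EGFP replicate 2). Its 3 probe sets ranged from -1.0 to 0.03, and their mean gave no call (-0.39, adjusted p = 0.29). Rab11b (0.10, adjusted p = 0.705) and the syntaxin partner Stxbp2 (-0.37, adjusted p = 0.174) did not pass, although the Stxbp2 groups did not overlap (11.44, 11.20 and 11.37 against 11.86, 11.66 and 11.60).

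Of 8 adaptors of myosin VI, 1 was higher, 1 lower and 6 did not pass, with a median of -0.58. The shares over all genes were 14.0% higher and 10.2% lower. The autophagy receptor gene Tax1bp1 fell by 0.70 (adjusted p = 0.0415), a call lost without any 1 array (up to 0.139) and with the replicate block (0.0652). Calcoco1, a related coiled-coil protein, rose by 1.09 (adjusted p = 0.0389), and that call was lost without any array except non-EGFP replicate 3 (up to 0.104), with arrays centred on their medians (0.0577) and with the mean of its probe sets (0.287). Tom1 (-0.56, adjusted p = 0.217) and Lmtk2 (-0.60, adjusted p = 0.0663) did not pass. Of 7 mitochondrial partners of myosin XIX, 0 passed the limma test in either direction and the median was -0.35, with Trak1 at -0.18 (adjusted p = 0.451) and the outer membrane receptor gene Mtx1 at 0.11 (adjusted p = 0.651).

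**Figure D4:**
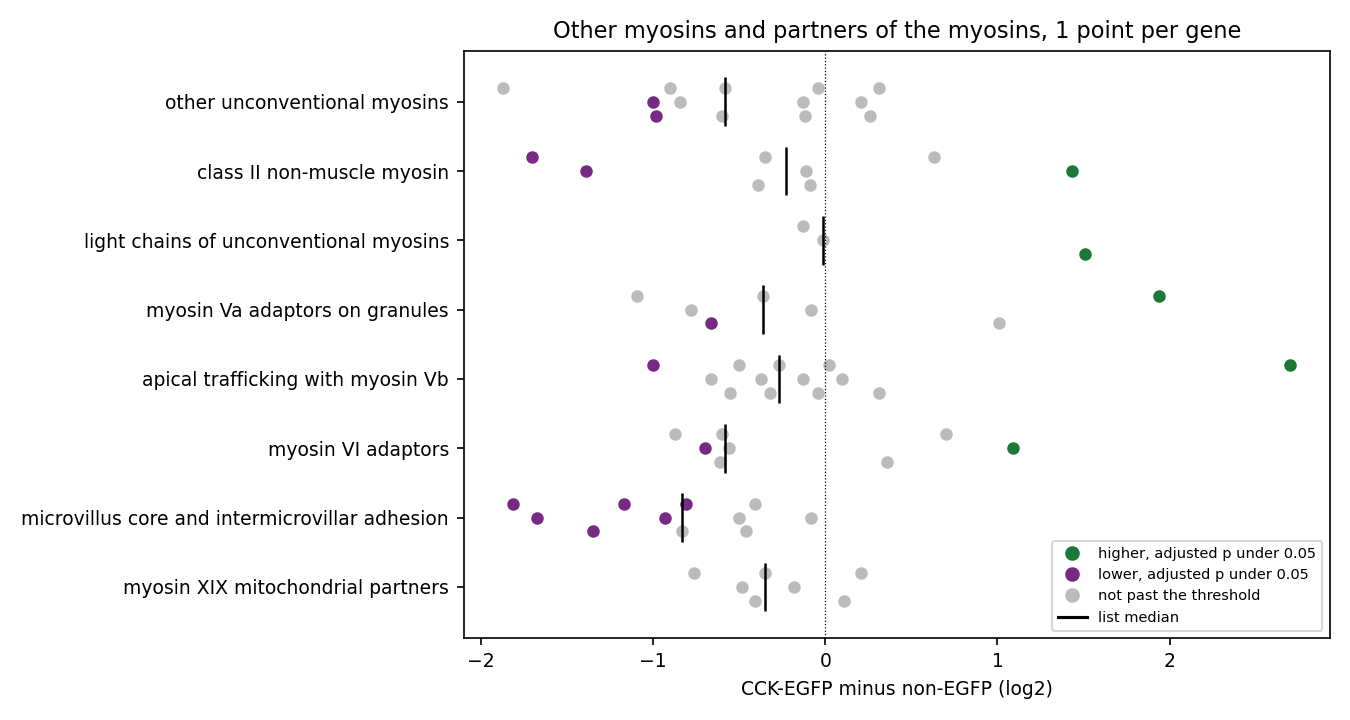
Difference CCK-EGFP minus non-EGFP on the log2 scale (horizontal axis) for 70 genes in 8 lists (vertical axis), 1 point per gene, coloured by the limma call, with a bar at the list median. Rab11fip2 (2.70) and Rab3a (1.94) lie farthest right, and the 6 lower calls of the microvillus list lie from -1.81 to -0.81.

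Of 13 further unconventional myosin genes, 2 were lower, 0 higher and 11 did not pass, with a median of -0.58. The shares over all genes were 10.2% lower and 14.0% higher. Myo18a, a PDZ-domain myosin of the Golgi, read 10.73, 10.48 and 10.51 against 11.77, 11.65 and 11.25 (-0.98, limma adjusted p = 0.0205). Myo18b (-1.0, adjusted p = 0.0459) was below background in both groups and lost its call with the replicate block (0.0656). Both calls were lost without any array except non-EGFP replicate 3 (up to 0.0849 for Myo18a and 0.13 for Myo18b). Myo15, named here only because the block gave it a call, stood at -0.84 (adjusted p = 0.0974, or 0.0496 with the replicate block). Myo7a, the class VII paralogue of Myo7b, was singled out after its values were seen. It read 5.63, 6.94 and 8.74 in CCK-EGFP cells against 8.98, 8.75 and 9.18, so replicate 3 stood beside the non-EGFP arrays (-1.87, adjusted p = 0.107).

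Among 8 genes of the conventional non-muscle myosin II, 1 rose, 2 fell and 5 did not pass, with a median of -0.23. The heavy chains are encoded by 3 genes. Myh14, the heavy chain of epithelial myosin IIC, read 10.09, 9.81 and 10.49 against 11.90, 11.81 and 11.79 and was 3.26-fold lower (-1.70, SE 0.22, limma adjusted p = 0.00403). Myh10, the heavy chain of myosin IIB, read 6.51, 6.07 and 5.73 against 4.70, 4.69 and 4.63 and was 2.69-fold higher (1.43, SE 0.24, adjusted p = 0.00934), although its other probe set differed by -0.49 and the mean of both gave 0.47 (adjusted p = 0.173). Myh9, the heavy chain of myosin IIA, stood at 13.09 and 13.18 (-0.09, adjusted p = 0.736), but its 5 probe sets ranged from -1.90 to -0.09 and their mean was lower (-0.61, adjusted p = 0.0337). The light chain kinase Mylk fell by 1.39 (adjusted p = 0.0423), a call lost without any array except CCK-EGFP replicate 3 (up to 0.131) and with the replicate block (0.0505). The light chain Myl12b did not pass (-0.11, adjusted p = 0.636).

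The genes most like the 4 class V and VI genes in pattern were found by Pearson correlation over the 6 arrays among 12964 genes with a mean above background. These values mostly restate the difference between the groups and are a description. Myo5a was most like Th, which encodes the catecholamine enzyme tyrosine hydroxylase (r = 0.9986), then Zswim1 (0.9985) and Asgr1 (0.9980). Th read 10.28, 9.56 and 10.32 in CCK-EGFP cells and 5.73, 3.55 and 3.57 in non-EGFP cells, with non-EGFP replicate 1 high as for Myo5a. Myo6 was most like the BMP receptor gene Bmpr1a (0.9973), the fatty acid desaturase gene Fads2 (0.9961) and the phosphodiesterase gene Pde8b (0.9953). Myo5b was most like the death receptor gene Fas (0.9990), Adap1 (0.9987) and Sccpdh (0.9985), and Myo5c like the condensin gene Ncaph (0.9950), the prostaglandin receptor gene Ptger1 (0.9902) and the mitochondrially encoded ND5 (0.9884).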

How the data were processed

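Total RNA of 3 CCK-EGFP and 3 non-EGFP samples was amplified from picograms and hybridised to arrays, per the labels. The authors deposited log2 values for 45101 probe sets, made with RMA per the submitters' processing notes. RMA corrects background, normalizes quantiles between arrays and gives no detection call; its version is not given in the sources used here. Of the probe sets, 34945 carried 1 gene symbol in the platform annotation, which can be old, and gave 18193 genes. The brightest probe set on average stands for a gene. The test was limma 3.58.1 under R 4.3.3 (lmFit and eBayes, both directions), with p-values adjusted by Benjamini-Hochberg over the 18193 genes and called under 0.05. The fit was tested on simulated data. The precision is limited by 3 arrays per group.

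The 10 genes, the lists and the markers were chosen with earlier results of these data known. The 10 genes have values, SDs and standard errors from the 2 group SDs, and no test. Named partners are, in each list, up to 4 past the threshold by size and up to 2 not past it by level, and all called genes among the other myosins. Of 75 listed partners 70 were measured, and 5 are not analysed here. Deviations of arrays from their group means correlated (Pearson, across genes) at 0.242, 0.197 and 0.197 between samples of the same replicate number and at -0.188 to -0.0404 otherwise. Deviations within a group cancel, so the negative values follow in part from the positive ones. Samples of the same number may thus be paired, but the main test and the standard errors do not use a pairing. The replicate block was fitted as an alternative, and partner calls that change with it are given beside the results. Other settings were filters on dim genes, trended and robust eBayes, array weights, median centring, averaging the probe sets of a gene, a further round of quantile normalization and leaving out each array.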

Additional observations from a re-analysis of the deposited data

How the results depend on the processing

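Over all genes, 2540 were higher and 1851 lower (limma, adjusted p under 0.05). With each array centred on its median, which shifts every difference by -0.25 in the median, the counts were 2101 higher and 3605 lower, and with the replicate block 2340 and 1534. Leaving out 1 array gave 1365 to 2486 higher and 505 to 1962 lower, the lower ends without CCK-EGFP replicate 2. The lower count also came to 666 without CCK-EGFP replicate 1 (1468 higher), 1021 without non-EGFP replicate 1 and 880 without non-EGFP replicate 2; fewer samples were tested. Of the partner genes, 13 were lower as reported, 24 with centring, 20 with trended and robust eBayes, and 4 to 11 with 1 array left out, and 5 were higher, or 3 to 5 with 1 array left out. The cause of the trended fit's larger count was not tested.

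Of the 10 myosin genes, 9 kept the sign of their difference under centring, the second quantile normalization, the mean of probe sets and each left-out array, and on every probe set. Apart from the single probe sets given above, Myo5a ran from 1.68 with the mean of probe sets to 3.36 with 1 array left out. Myo6 ran from 0.67 with centring to 1.27 with the mean of probe sets. Leaving out the mean of probe sets, Myo5a ran from 2.75 to 3.36 and Myo6 from 0.67 to 1.03. Myo1c ran from -0.19 to 0.10 with 1 array left out and read 0.34 on 1 probe set. Spire2 also lost its call with array weights and the second quantile normalization, and Myo18b with the latter. RMA gives no signal over background, so low probe sets such as the second of Myo5c cannot be ordered.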
